A study of Mus musculus with 120 samples.

Results

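The extra-embryonic part of the mouse embryo was compared between 6.5 and 7.5 days post coitum (dpc), the interval in which gastrulation sends mesoderm into it. RNA was sequenced from 2 libraries at each of these stages and from 2 more at 7.0 dpc, all of the strain ICR, collected from pregnant mice. No genotype, treatment or genetic change is given in the labels, so stage is the only labelled difference. The comparison covers every gene with 10 or more counts in at least 2 of the 4 libraries from 6.5 and 7.5 dpc, which left 12203 of the 23154 genes in the table. A gene could pass through a single stage: 386 had under 10 counts in both E6.5 libraries and 194 had under 10 in both E7.5 libraries, so such genes were bound to differ. The same study collected the embryonic part at E6.5 (the epiblast, labelled Epi) and 3 embryonic regions at E7.5 (labelled A, P and AM), 2 libraries each, which serve here for a test of whether a change with stage differed between the parts. The labels do not say whether a library came from 1 embryo or a pool, or whether replicates came from separate litters, so p-values measure only the spread between these libraries. In such bulk tissue, fewer cells of a type and less RNA per cell cannot be told apart.

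At the earlier stage the extra-embryonic part of the egg cylinder is made of extra-embryonic ectoderm, a trophoblast tissue that holds stem cells kept by FGF and Nodal signals, wrapped in visceral endoderm, an absorptive and secretory epithelium. As gastrulation proceeds, mesoderm leaves the posterior primitive streak and moves into this region, where it lines the yolk sac, the chorion and the amnion and grows out as the allantois. Blood islands then form in the yolk sac mesoderm, and progenitors there give rise to primitive red cells and vessel endothelium under regulators such as Etv2, Tal1 and Lmo2.

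Levels are given in CPM, counts relative to a library's total after scaling by edgeR's trimmed mean of M-values (TMM). The 4 libraries of the comparison held 7084129 to 12971681 counts, and those from E7.0 held 17138732 and 5145033. Log2 CPM correlated across genes at 0.961 between the E6.5 replicates, 0.953 between the E7.5 replicates and 0.872 between the E7.0 replicates; genes are not independent replicates. The ribosomal RNA precursor Rn45s took 1.4% and 6.91% of the counts at E6.5 and 2.23% and 0.15% at E7.5. At both stages replicate 1 carried counts from 4 Y-linked genes (1686 and 1726) and replicate 2 almost none (3 and 0), so each stage held a library with and a library without Y-linked RNA.

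Lists of markers were examined in the 4 libraries of the comparison. All 26 listed genes of extra-embryonic ectoderm and 25 of 27 of visceral endoderm had enough counts to be tested. The extra-embryonic ectoderm genes summed to 3304 and 4160 CPM at E6.5 and 2685 and 4748 at E7.5. The visceral endoderm genes summed to 11150 and 16530 CPM at E6.5 and 23020 and 29180 at E7.5, without overlap. The part of tissue make-up in this shift was not tested. Epiblast genes had enough counts in 13 of 14 cases, so this does not tell the parts apart. They summed to 718 and 881 CPM at E6.5 and 503 and 565 at E7.5. Of 8 genes of the mother's decidua, 2 had enough counts to be tested and neither passed. The list summed to 3.30 and 3.94 CPM at E6.5 and 10.3 and 9.51 at E7.5, with most of the E7.5 sums from Des and Cryab. Prl3c1, named after its values were seen, had 1 count at E6.5 and none at E7.5. The part of decidual RNA in the rises was not tested. White blood cell and adult red cell genes summed to 5.08 to 8.87 CPM. The adult globins Hbb-b1 and Hbb-b2 had no count in any of these libraries.

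Between E6.5 and E7.5, 132 genes rose (1.08% of those tested) and 8 fell (0.0656%) by edgeR's quasi-likelihood test at a Benjamini-Hochberg adjusted p under 0.05. Among the genes that rose were regulators of blood and vessel progenitors, genes of mesenchyme and genes of posterior patterning. The counts of risers per list below stand beside the 1.08% of all genes tested, and no list was tested as a set. The median log2 fold change was 3.40 among the genes that rose and -2.31 among those that fell, against 0.01 over all genes tested, and the smallest change that passed was 1.08. Of the 132 risers, 57 had under 10 counts in both E6.5 libraries, and 1 of the 8 fallers had under 10 in both E7.5 libraries. All 140 called genes (1.15% in either direction) had E6.5 and E7.5 libraries that did not overlap, a pattern shared by 50.6% of all genes tested. The plot of fold change against level shows the imbalance between directions.

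The size of this imbalance depended on the fit. DESeq2 called 370 genes higher and 72 lower, which put 83.7% of its calls on the higher side against 94.3% here, and edgeR on the 4 libraries alone called 233 and 142 (62.1% higher). Leaving out 1 library moved the count of risers to 14 without E6.5 replicate 1, 23 without E6.5 replicate 2, 174 without E7.5 replicate 1 and 93 without E7.5 replicate 2. The count of fallers moved to 0, 1, 34 and 3 in the same order. Of 55 genes named here that passed, 5 (Ccnd1, Crabp1, Ifitm1, Ifitm2 and Tmem88) kept their call under all 15 alternatives, while 46 were lost without E6.5 replicate 1 and 43 without E6.5 replicate 2. The fit of the 6 extra-embryonic libraries alone lost 39 of the 55, and scaling by total counts alone lost 19. None of the 55 changed direction under any of them. Beyond those marked as such where they appear, Kdr, Tek, Gfi1b, Epor, Foxf1, Bmp2, Bmp4, Bmp8b, Pdgfra, Kit, Eomes, Tfap2c, Esrrb, Sox2, Wnt7b, Rbp4, Apoe and Phlda2 were also named after their values were seen.

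Of 23 blood and vessel progenitor genes, 17 had enough counts to be tested, 6 of them only through E7.5. Tal1 and Lmo2, partners in a transcription factor complex of blood formation, rose, none of the 17 fell, and their median log2 fold change was 3.07. Tal1 (chr4:115056426-115071755) had no count in either E6.5 library, 0.739 and 2.96 CPM at E7.0, and 21.2 and 23.9 CPM at E7.5. Against a limit of 3 counts over both E6.5 libraries, it was at least 139.6-fold higher (edgeR quasi-likelihood, adjusted p = 0.028). The E7.5 libraries lay close together and far above all others.

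Lmo2 (chr2:103957903-103981878) measured 1.30 and 0.281 CPM at E6.5, 0.791 and 21.4 at E7.0, and 32.4 in both E7.5 libraries. It rose by 5.24 on the log2 scale (SE 1.14, edgeR adjusted p = 0.036). At E7.0 replicate 1 was within the E6.5 range and replicate 2 near the E7.5 level. Etv2, which starts the blood and vessel programme, measured 2.52 and 1.41 CPM at E6.5 and already 22.6 and 25.7 at E7.0, with 20.6 and 24.4 at E7.5. Its log2 fold change of 3.48 (SE 0.82) stayed just outside the threshold (adjusted p = 0.054), with no overlap between the stages. Tek, the angiopoietin receptor, had the same adjusted p of 0.054, at 0.435 and 0.563 CPM against 9.16 and 6.67. Kdr, the main VEGF receptor of early mesoderm, went from 1.30 and 1.27 CPM to 32.0 and 17.8 without passing (log2 fold change 4.26, SE 1.63, adjusted p = 0.27). Runx1, needed for definitive blood, measured 10.0 and 8.58 CPM at E6.5 and 17.6 and 20.2 at E7.5, with an adjusted p of 0.54. The count of 2 risers in this list became 0 without E6.5 replicate 1, without E6.5 replicate 2 or without E7.5 replicate 2, and 1 without E7.5 replicate 1.

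The genomic windows before the 2 annotated starts of Tal1 are shown because this gene went from no count to a level shared by both E7.5 libraries. Each holds the 250 bases before a start on the plus strand (RefSeq, GRCm38.p6), written 5′ to 3′, at chr4:115056176-115056425 for start 1 and chr4:115057561-115057810 for start 2. Capitals mark matches, on either strand, to the GATA motif (AGATAA or AGATAG, and TGATAA or TGATAG) or to GGGCGG.
Tal1 start 1: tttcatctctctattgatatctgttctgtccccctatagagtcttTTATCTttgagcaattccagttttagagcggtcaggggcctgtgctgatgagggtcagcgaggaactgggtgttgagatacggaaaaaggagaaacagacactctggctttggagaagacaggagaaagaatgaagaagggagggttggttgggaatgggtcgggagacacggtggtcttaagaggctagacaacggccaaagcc
Tal1 start 2: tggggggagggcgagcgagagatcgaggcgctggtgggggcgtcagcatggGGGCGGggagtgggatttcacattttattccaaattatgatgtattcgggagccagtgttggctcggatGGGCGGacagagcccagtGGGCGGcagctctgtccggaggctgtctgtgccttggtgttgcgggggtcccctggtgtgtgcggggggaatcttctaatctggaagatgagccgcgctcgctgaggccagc
Start 1 held 1 match to the GATA motif and start 2 held 3 to GGGCGG. Among 32817 promoter windows of this length, 26.6% held the GATA motif and 32.7% GGGCGG, so neither match is rare. The matches describe letters and not binding.

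Of 21 primitive red cell genes, 13 were tested, 4 of them only through E7.5. An embryonic globin was the 1 that rose, none fell, and 9 of the 13 had a positive fold change (median 1.13). Hbb-bh1, a beta-like globin of primitive red cells (chr7:103841638-103843162), had no count in the E6.5 and E7.0 libraries and 60.4 and 7.31 CPM at E7.5. It was at least 209.9-fold higher against the limit of 3 counts (edgeR adjusted p = 0.024), but its E7.5 replicates differed widely. The call was absent without either E6.5 library, without E7.5 replicate 1 (adjusted p = 0.077) and with DESeq2. The other embryonic globins were at the floor: Hba-x had 3 counts over both E6.5 libraries and 11 over both E7.5 libraries, and Hbb-y had 7 and 7, so neither was tested. Gata1, the erythroid master regulator, measured 19.7 and 25.6 CPM at E6.5 and 26.6 and 38.8 at E7.5 (adjusted p = 0.63). Gfi1b, a repressor in red cell progenitors, went from 0.609 and 0.141 to 7.32 and 13.7 CPM, and Epor, the erythropoietin receptor, from 0.435 and 0.422 to 6.08 and 1.92 CPM. Neither passed (adjusted p = 0.085 and 0.081), nor did Klf1, at 3.39 and 1.28 CPM at E7.5. None of the 12 genes of haem synthesis and iron transport passed.

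Among ligands and receptors of vessel growth, 10 of 12 genes were tested and 2 rose, both receptors. Aplnr, the apelin receptor of migrating mesoderm, measured 0.261 and 0.844 CPM at E6.5 and 27.9 and 19.9 at E7.5, a log2 fold change of 5.54 (SE 1.09, edgeR adjusted p = 0.028). Nrp1, a co-receptor for VEGF and semaphorins, went from 2.35 and 1.55 to 37.6 and 18.7 CPM (3.82, SE 0.70, adjusted p = 0.015). Apela, a peptide ligand of Aplnr named after its values were seen, also rose, from 0.783 and 0.704 to 11.6 and 4.30 CPM (3.39, SE 0.75, adjusted p = 0.037). The call of Aplnr was lost when any of the 4 libraries was left out, that of Nrp1 without either E6.5 library, and that of Apela without either E6.5 library or E7.5 replicate 1.

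**Figure D1:**
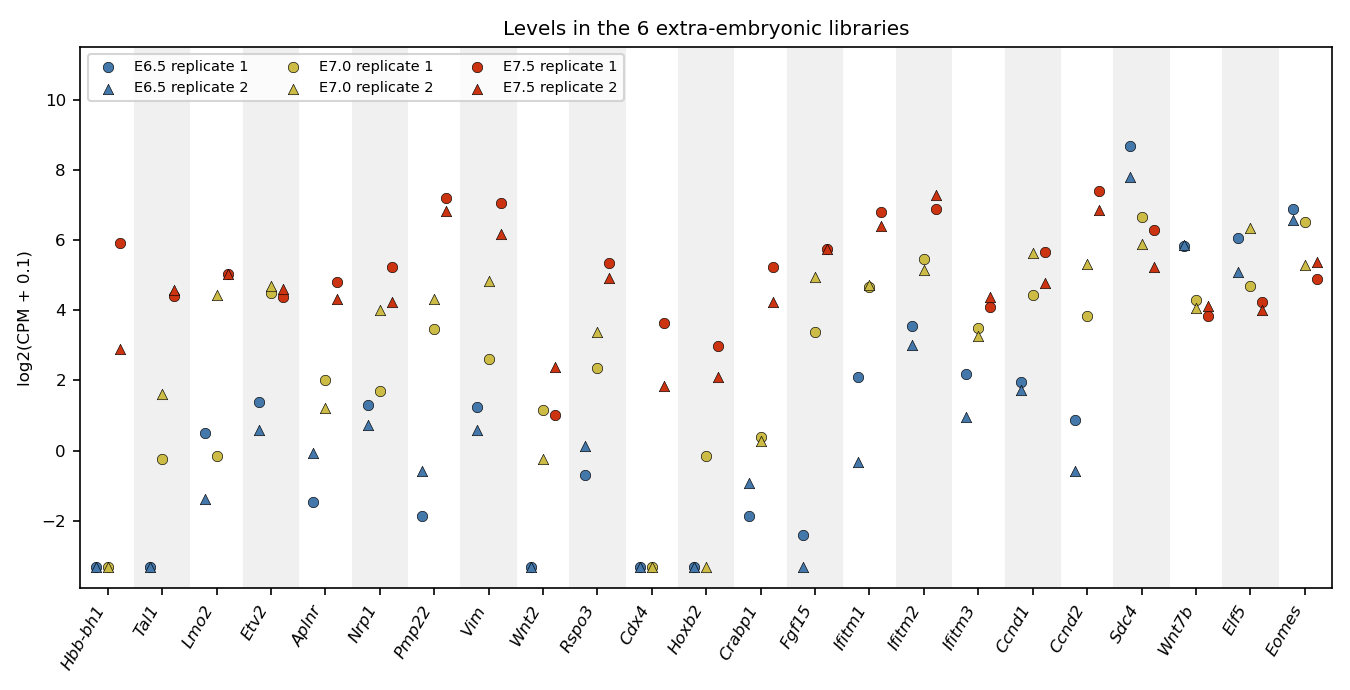
The y axis gives log2(CPM + 0.1) of 23 genes in the 6 extra-embryonic libraries, with E6.5 in blue, E7.0 in yellow and E7.5 in red, circles for replicate 1 and triangles for replicate 2. Points at the bottom have no count; Tal1 has none at E6.5 and 21.2 and 23.9 CPM at E7.5, whereas Sdc4 runs the other way.

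Genes of extra-embryonic mesoderm and allantois rose in part. Of 23, 18 were tested, 5 of them only through E7.5, and 3 rose (Pmp22, Vim and Wnt2) and none fell, with a median log2 fold change of 1.84. Pmp22, a membrane protein of mesenchyme (chr11:63128982-63159547), measured 0.174 and 0.563 CPM at E6.5, 11.0 and 19.8 at E7.0, and 147 and 114 at E7.5. It rose by 8.57 on the log2 scale (SE 1.47, edgeR adjusted p = 0.017), and the 3 stages did not overlap. Vim, the intermediate filament of mesenchymal cells (chr2:13574311-13582826), measured 2.26 and 1.41 CPM, then 6.01 and 28.1, then 132 and 71.4. Its rise was 5.75 (SE 0.83, adjusted p = 0.0026). Wnt2, a ligand of allantois mesoderm, had no count at E6.5 and 1.93 and 5.12 CPM at E7.5, at least 21.8-fold higher (adjusted p = 0.025). Wnt2 lost its call without either E6.5 library or E7.5 replicate 2.

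Several other mesoderm regulators were higher at E7.5 without passing. Foxf1, a factor of yolk sac and allantois mesoderm, had 0 and 0.422 CPM at E6.5, 0.528 and 21.6 at E7.0, and 26.1 and 9.23 at E7.5 (adjusted p = 0.29). Hand1, expressed in both trophoblast and mesoderm, measured 11.7 and 10.4 CPM at E6.5 and 38.6 and 28.2 at E7.5 (adjusted p = 0.57). Pdgfra, a receptor also found in endoderm, went the other way without passing, at 45.7 and 35.04 CPM against 34.7 and 28.9 (log2 fold change -0.34, SE 0.51). Bmp2 went from 2.70 and 3.66 to 15.2 and 9.14 CPM (adjusted p = 0.10). The 3 calls in this list became 0 without either E6.5 library, 3 without E7.5 replicate 1 and 2 without E7.5 replicate 2.

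Matrix and cell movement genes outside the lists were also among the 132 risers, and these were picked after their values were seen. Mmp2, a matrix metalloproteinase, had 2 counts over both E6.5 libraries and 12.2 and 6.40 CPM at E7.5, a ratio of 88.6 with a 95% counting interval of 24.3 to 736.4 (edgeR adjusted p = 0.002). Snai2, a driver of epithelial to mesenchymal change, likewise had 2 counts at E6.5 and 15.2 and 3.02 CPM at E7.5 (ratio 89.4, interval 24.5 to 742.8, adjusted p = 0.044). Hapln1, which links hyaluronan to proteoglycan, had 1 count at E6.5 and 20.5 and 9.96 CPM at E7.5 (ratio 291.6, interval 52.0 to 11550). These intervals cover counting error only.
The mesenchymal cadherin Cdh11 rose by 5.11 (SE 0.86), smooth muscle actin Acta2 by 5.50 (SE 1.14), the hyaluronan receptor Cd44 by 3.21 (SE 0.72) and the proteoglycan Vcan by 3.21 (SE 0.72), with edgeR adjusted p-values of 0.0065, 0.026, 0.040 and 0.040. Cdh2, N-cadherin, was the 1 gene of 12 tested in the epithelial keratin and junction list to rise, from 0.696 and 0.844 to 13.9 and 5.76 CPM (3.68, SE 0.70, adjusted p = 0.017). The other 11 did not pass. Krt8, a simple epithelial keratin, measured 285 and 346 CPM at E6.5 and 592 and 834 at E7.5 (adjusted p = 0.28). When single libraries were left out, Cdh11 was lost only without E6.5 replicate 2, and the 7 others without E6.5 replicate 1. All 7 but Cd44 were also lost without E6.5 replicate 2, all but Mmp2 without E7.5 replicate 1, and Cd44 without E7.5 replicate 2 as well.

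Genes of the streak and of posterior patterning were low at both stages, and few were testable. Of 16 streak genes, 9 were tested and 1 rose, Cdx4, a homeobox gene upstream of Hox genes. It had no count at E6.5 or E7.0 and 12.2 and 3.47 CPM at E7.5, at least 48.7-fold higher (edgeR adjusted p = 0.035). T, the defining gene of the streak, measured 8.18 and 2.67 CPM at E6.5, 35.9 and 46.8 at E7.0, and 29.0 and 15.5 at E7.5 (adjusted p = 0.38). Mixl1, another streak gene, was highest at E7.0, at 91.5 and 20.5 CPM, and overlapped between E6.5 (6.70 and 4.08) and E7.5 (12.7 and 1.46). In the posterior embryonic region at E7.5 these genes averaged 360 CPM for T and 147 CPM for Mixl1. What part of the rises in the extra-embryonic libraries came from neighbouring embryonic tissue was not tested.

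Only 8 of 24 Hox genes had enough counts, 7 of them through E7.5 alone, and 2 rose, Hoxb2 and Hoxd1. The median log2 fold change of the 8 was 6.19, or 3.43 with genes that had no E6.5 count set to their lower bound. Hoxb2 had no count at E6.5 and 7.86 and 4.21 CPM at E7.5 (at least 37.4-fold higher, adjusted p = 0.020). Hoxd1 had none at E6.5 and 6.78 and 3.11 CPM at E7.5 (at least 30.6-fold, adjusted p = 0.042). Hoxb1, an early Hox gene of the streak, had 0 and 0.563 CPM at E6.5 and 16.3 and 2.65 at E7.5 without passing (adjusted p = 0.074). The Hox count fell to 0 without either E6.5 library and 1 without E7.5 replicate 1, Hoxd1 lost its call without each of the 4 libraries, and Cdx4 was lost without either E6.5 library, without E7.5 replicate 1 and with scaling by total counts alone.

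Signalling genes gave single strong members. Among 9 tested of 17 Wnt ligands and secreted modulators, Rspo3, which potentiates Wnt signals through LGR receptors, rose from 0.522 and 0.985 CPM at E6.5 through 5.01 and 10.4 at E7.0 to 40.4 and 30.3 at E7.5. The change was 5.59 (SE 0.77, edgeR adjusted p = 0.0018; 0.080 without E6.5 replicate 1). Wnt5a, a non-canonical ligand, measured 1.04 and 1.27 against 14.3 and 2.92 CPM (adjusted p = 0.083). Lef1, a nuclear partner of beta-catenin named after its values were seen, rose by 3.41 (SE 0.73, adjusted p = 0.033). That call was lost without either E6.5 library or E7.5 replicate 1.

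Of 13 genes of retinoid transport, synthesis and response, 8 were tested and 1 rose, Crabp1, a cytosolic retinoic acid binding protein (chr9:54764748-54773110). It measured 0.174 and 0.422 CPM at E6.5, 1.21 and 1.11 at E7.0, and 37.4 and 18.6 at E7.5. The rise of 6.62 (SE 0.66) had an edgeR adjusted p of 0.00012, the smallest in the comparison, which Ifitm2 and Tmem88 also had. The E7.0 libraries stood nearer to E6.5. None of 8 tested BMP target genes passed. Id3 measured 125 and 126 CPM at E6.5 and 316 and 347 at E7.5 (log2 fold change 1.4, SE 0.42, adjusted p = 0.13). The BMP ligands of this region did not pass either: Bmp4 measured 28.3 and 34.9 against 47.0 and 62.5 CPM, and Bmp8b 54.8 and 35.9 against 11.4 and 24.8 CPM.

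Members of the interferon-induced transmembrane family rose together. Ifitm1 and Ifitm3, both in the list of primordial germ cell genes, were the 2 of its 7 tested members to pass, and Ifitm2 was among the largest rises. Ifitm1 (chr7:140967429-140969827) measured 4.17 and 0.704 CPM at E6.5, 25.1 and 26.4 at E7.0, and 112 and 83.5 at E7.5, a rise of 5.24 (SE 0.72, edgeR adjusted p = 0.002). Ifitm2 (chr7:140954837-140959686) measured 11.6 and 8.02, then 44.3 and 35.3, then 118 and 154 CPM, a rise of 3.79 (SE 0.37, adjusted p = 0.00012). Ifitm3 (chr7:141009590-141010744) measured 4.44 and 1.83, then 11.1 and 9.43, then 17.1 and 20.8 CPM, a rise of 2.56 (SE 0.56, adjusted p = 0.036). In all 3 genes the libraries ordered by stage without overlap. The same held for 74 of the 132 risers, so it is not particular to these genes, and its share over all genes is not given. No called gene overlapped between E6.5 and E7.5. Ifitm1 and Ifitm2 kept their calls when any library was left out; Ifitm3 lost its call without each of the 4 libraries (0.050 to 0.34). Kit, another germ and blood progenitor gene, went from 0.870 and 0.281 to 6.62 and 2.83 CPM (adjusted p = 0.099). The genes are related in sequence, and how reads matching several of them were counted is not given in the sources used here.

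The 250 bases before an annotated start of each are shown, since the 3 neighbours moved together on chromosome 7 (RefSeq, GRCm38.p6, 5′ to 3′ on the gene's strand). The windows are chr7:140967826-140968075 (plus strand) for Ifitm1, chr7:140955962-140956211 (minus) for Ifitm2 and chr7:141010745-141010994 (minus) for Ifitm3. The windows of Ifitm1 and Ifitm2 lie inside the gene spans given above, so each precedes an internal start. The bases before the outermost start of these genes are not shown. The starts used for Ifitm1 and Ifitm2 point away from each other 12.1 kb apart, and that of Ifitm3 lies 42.7 kb from that of Ifitm1. Capitals mark matches on either strand to the same GATA motif, to GGGCGG and to TATAAA, the TATA box. They also mark the letters GAAANNGAA, and those of the CCAAT box.
Ifitm1: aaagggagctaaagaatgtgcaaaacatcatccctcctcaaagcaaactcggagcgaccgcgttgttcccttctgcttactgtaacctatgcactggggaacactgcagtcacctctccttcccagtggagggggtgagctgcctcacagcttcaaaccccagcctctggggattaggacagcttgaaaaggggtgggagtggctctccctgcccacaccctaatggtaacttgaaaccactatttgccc
Ifitm2: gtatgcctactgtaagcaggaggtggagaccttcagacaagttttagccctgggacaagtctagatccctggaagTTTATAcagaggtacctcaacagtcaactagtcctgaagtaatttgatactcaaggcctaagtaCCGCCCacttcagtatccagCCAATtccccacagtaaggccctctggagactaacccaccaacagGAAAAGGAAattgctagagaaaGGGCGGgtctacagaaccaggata
Ifitm3: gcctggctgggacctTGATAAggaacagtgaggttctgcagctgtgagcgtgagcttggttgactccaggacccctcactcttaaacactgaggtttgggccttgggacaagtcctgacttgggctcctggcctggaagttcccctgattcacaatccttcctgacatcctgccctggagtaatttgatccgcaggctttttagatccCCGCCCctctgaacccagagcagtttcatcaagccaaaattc
The window of Ifitm2 held 1 match each to GAAANNGAA, part of the core of interferon response elements, TATAAA and CCAAT, and 2 to GGGCGG. That of Ifitm3 held 1 match each to GGGCGG and the GATA motif, and that of Ifitm1 held no match to these letters. GAAANNGAA was present in 7.12%, TATAAA in 12.4% and CCAAT in 33.8% of the 32817 windows.

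Fgf15, a secreted growth factor, had 1 count over both E6.5 libraries, 10.4 and 30.5 CPM at E7.0, and 53.0 and 53.1 at E7.5. The ratio of counts was 986.8 (95% counting interval 176.8 to 39010) and the edgeR adjusted p was 0.0017, or 0.063 without E6.5 replicate 1. Fgf15 lies at chr7:144896532-144900953, next to Ccnd1 at chr7:144929931-144939831, which also rose. It was the 1 riser among 13 tested of 14 epiblast genes, 10 of which had a negative fold change, and none fell. Utf1, an epiblast and trophoblast chromatin factor, measured 132 and 126 CPM at E6.5 and 30.9 and 65.0 at E7.5 (adjusted p = 0.31), and the pluripotency factor Pou5f1 5.22 and 3.38 against 16.4 and 5.76 (adjusted p = 0.49).

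D-type cyclins, which couple growth signals to the start of the cell cycle, were the 2 risers among 21 tested cell cycle genes. Ccnd1 measured 3.74 and 3.24 CPM at E6.5, 21.5 and 49.4 at E7.0, and 50.8 and 27.1 at E7.5 (3.47, SE 0.42, edgeR adjusted p = 0.00065). Ccnd2 measured 1.74 and 0.563, then 14.1 and 40.0, then 168 and 115 CPM (6.84, SE 1.03, adjusted p = 0.0059). At E7.0 replicate 2 of Ccnd1 lay within its E7.5 range and replicate 1 below it, whereas both E7.0 libraries of Ccnd2 lay below theirs. The replication and mitosis genes of the list did not pass; Mcm3, a helicase subunit, measured 143 and 152 against 198 and 164 CPM. Ccnd2 was lost without either E6.5 library.

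Of 20 imprinted genes, 17 were tested, 2 rose, against 1.08% of all genes tested, and 15 did not pass. Both risers are expressed from the father's allele, which was not tested as a pattern. Mest, a hydrolase-like protein of mesoderm, measured 16 and 36.2 CPM at E6.5, 19.0 and 22.9 at E7.0, and 162 and 130 at E7.5 (2.49, SE 0.52, edgeR adjusted p = 0.029). Ndn, a growth-restraining MAGE protein, measured 2.61 and 3.66, then 3.69 and 10.5, then 20.3 and 17.6 CPM (2.61, SE 0.51, adjusted p = 0.020). The E7.0 libraries stood with E6.5 for Mest. Its call was lost when any of the 4 libraries was left out, and that of Ndn without either E6.5 library.

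The remaining large rises were in genes with a mean log2 CPM of at least 3. Prtg, a surface protein of the immunoglobulin superfamily found in early mesoderm and neuroectoderm, measured 65.0 and 54.2 CPM at E6.5 and 398 and 326 at E7.5 (2.60, SE 0.44, edgeR adjusted p = 0.0065). Bex2, an X-linked adaptor, went from 26.4 and 53.2 to 247 and 250 CPM (2.64, SE 0.38, adjusted p = 0.002). Flna, which cross-links actin, went from 8.87 and 14.2 to 65.5 and 53.6 CPM (2.37, SE 0.41, adjusted p = 0.0076). Their E7.0 libraries lay between the stages in each case.
Spin2c, of the spindlin family of histone readers, rose by 3.84 (SE 0.60), the surface protein Cd24a by 3.55 (SE 0.67), Glipr2 by 2.91 (SE 0.55), the LIM protein Pdlim4 by 2.60 (SE 0.48) and the membrane carbonic anhydrase Car14 by 2.41 (SE 0.37). Their adjusted p-values ran from 0.0034 for Car14 to 0.018 for Cd24a. All 8 genes lost their call without at least 1 E6.5 library, Cd24a also without E7.5 replicate 1 and Pdlim4 without E7.5 replicate 2. Isl1, a LIM homeobox gene of lateral mesoderm named after its values were seen, had 1 count at E6.5 and 6.47 and 3.29 CPM at E7.5 (adjusted p = 0.036), and lost its call without each of the 4 libraries.

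Trophoblast genes had mostly negative fold changes, and no gene of the list passed. All 26 genes of extra-embryonic ectoderm and trophoblast stem cells were tested, none rose and none fell by edgeR, and 20 had a negative fold change, against 49.5% of all genes. Their median was -0.78, and 6 had a positive fold change, Bmp4 among them. Summed over the list, levels overlapped between the stages, at 3304 and 4160 CPM at E6.5 and 2685 and 4748 at E7.5. The members described in the next paragraph all had a negative fold change, and most were named after their values were seen. In 20 of the 26 the E6.5 and E7.5 libraries did not overlap, against 50.6% of all genes tested. The count of fallers was 1 with DESeq2 and 6 in the fit of the 4 libraries alone.

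Among the transcription factors, Eomes measured 118 and 94.3 CPM at E6.5 and 29.8 and 41.6 at E7.5 (log2 fold change -1.58, SE 0.58, adjusted p = 0.22). Tfap2c measured 87.1 and 80.5 against 26.3 and 30.5 CPM (-1.56, SE 0.55, adjusted p = 0.20). Elf5 measured 65.9 and 33.6 against 18.7 and 15.8 CPM, with 80.5 in E7.0 replicate 2 (-1.53, SE 0.63, adjusted p = 0.29). All 3 are needed to keep trophoblast stem cells. Esrrb (45.2 and 44.8 against 12.5 and 22.8 CPM) and Sox2 (21.4 and 11.1 against 5.01 and 4.11 CPM) gave adjusted p-values of 0.23 and 0.18. Cdx2, the factor that sets trophoblast fate, overlapped between stages (9.83 and 7.46 against 9.47 and 3.29 CPM). Wnt7b, a ligand of the chorionic trophoblast (chr15:85535437-85581821), measured 57.1 and 58.3 CPM at E6.5, 19.6 and 16.6 at E7.0, and 14.2 and 17.3 at E7.5 (-1.88, SE 0.55, adjusted p = 0.12). Its E7.0 libraries stood with E7.5.

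**Figure D2:**
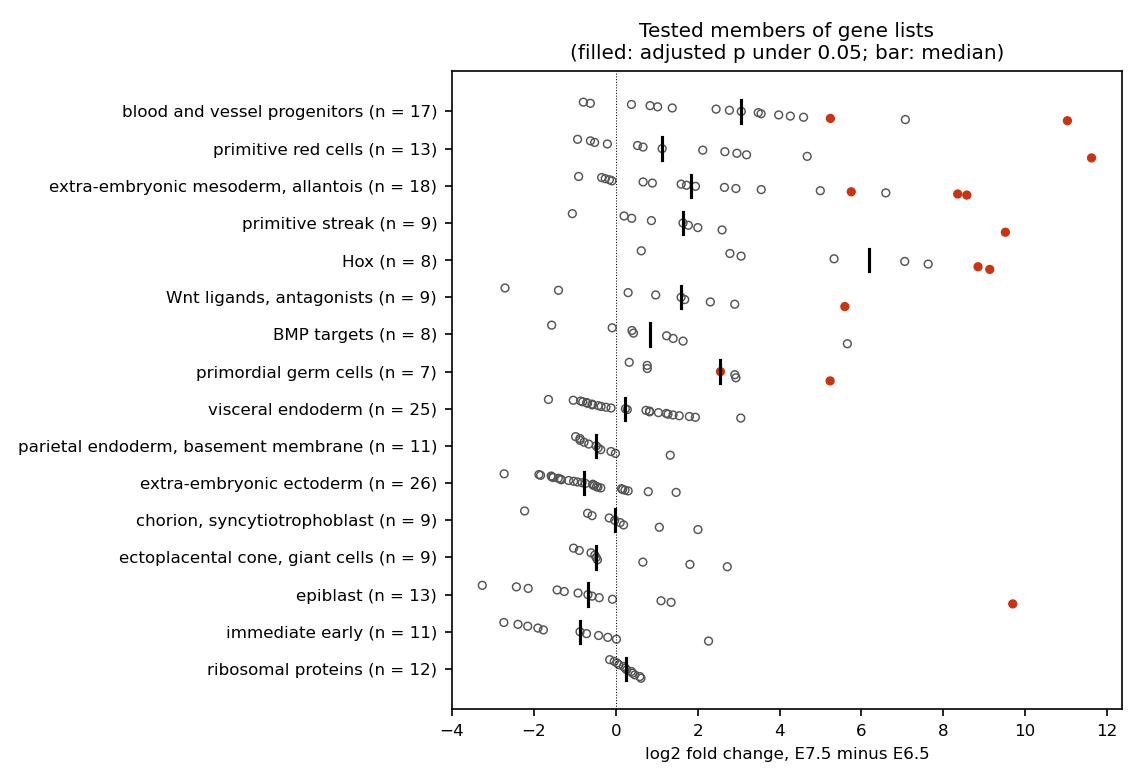
Each circle is a tested member of 1 of 16 gene lists, placed by its log2 fold change, E7.5 minus E6.5; filled circles passed at an adjusted p under 0.05 and the bar is the list's median. Medians run from -0.87 for immediate early genes to 6.19 for Hox genes (3.43 with lower bounds for genes with no E6.5 count; 7 of these 8 passed the filter through E7.5 alone), and no member of the extra-embryonic ectoderm list is filled.

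The 8 genes that fell share no list, and 7 are described here. The gene left out is the only 1 of the 8 whose fall also passed the test against the embryonic part, given below. Sdc4, a heparan sulphate proteoglycan and FGF co-receptor (chr2:164424247-164443188), measured 410 and 222, then 100 and 59.4, then 78.3 and 37.2 CPM (-2.45, SE 0.50, adjusted p = 0.026). Its E7.0 libraries had dropped below the E6.5 range.
Nfkbiz, a nuclear regulator of NF-kappa-B, fell from 44.0 and 33.5 to 10.6 and 6.67 CPM (-2.16, SE 0.43). The adenylate kinase Ak1 fell from 44.0 and 48.4 to 14.8 and 16.7 CPM (-1.55, SE 0.35), and the RNA-binding protein Khsrp from 26.9 and 20.4 to 5.62 and 1.74 CPM (-2.67, SE 0.61). Sycp3, a meiotic chromosome axis protein, fell from 22.8 and 23.2 to 5.62 and 4.84 CPM (-2.13, SE 0.49). Tmem181c-ps, a pseudogene whose reads may be shared with its parent, fell by 2.11 on the log2 scale (SE 0.45). Sipa1l3, named after its values were seen, had 7.65 and 26.0 CPM at E6.5 and 0.462 and 0.548 at E7.5. Adjusted p-values of these 6 ran from 0.021 to 0.047. All 7 lost their call without either E6.5 library or E7.5 replicate 2. Ak1, Sycp3, Tmem181c-ps and Sipa1l3 were lost without E7.5 replicate 1 too.

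Visceral endoderm genes were abundant at both stages, with a higher summed level at E7.5, and none of 25 tested passed. Their fold changes split into 13 positive and 12 negative, with a median of 0.24 that became -0.03 with scaling by total counts. In the fit of the 4 libraries alone 3 were called higher and 1 lower. Rbp4, the plasma retinol carrier, measured 804 and 779 CPM at E6.5, 2003 and 1787 at E7.0, and 4978 and 8160 at E7.5 (log2 fold change 3.05, SE 1.23, adjusted p = 0.29). Ttr, which carries thyroid hormone and Rbp4, measured 795 and 889 against 1741 and 2336 CPM (adjusted p = 0.78). Apoe, a lipid carrier, measured 2356 and 5205 against 6014 and 7388 CPM (adjusted p = 0.72), and Afp, the fetal albumin, 76.5 and 50.2 against 220 and 152 CPM (adjusted p = 0.64). The stages did not overlap in any of these 4 genes, as in 19 of the 25 tested and 50.6% of all genes tested. All 4 were higher at E7.5, and the 12 members with a negative fold change are not described here. Of 11 tested genes of parietal endoderm and basement membrane none passed and 10 had a negative fold change; Col4a1, a collagen of that membrane, measured 150 and 156 against 97.3 and 96.2 CPM (adjusted p = 0.40).

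None of 9 tested genes of ectoplacental cone and giant cells passed, yet the summed level of all 18 listed went from 689 and 679 CPM to 2483 and 3933 CPM. Phlda2, an imprinted growth restrictor of the placenta, made up most of that sum, at 442 and 410 CPM at E6.5, 1280 and 983 at E7.0, and 2285 and 3343 at E7.5 (log2 fold change 2.72, SE 0.75, adjusted p = 0.10). It also rose in the embryonic part, by 5.51 (SE 0.82, edgeR adjusted p = 0.0025), so its level is not particular to ectoplacental cells. Ascl2, needed for the spongiotrophoblast, measured 27.1 and 31.0 against 16.9 and 25.6 CPM. Of 9 tested genes of chorion and syncytiotrophoblast none passed (median -0.02).

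No gene passed in the lists that can follow handling or growth, the D-type cyclins apart. Immediate early genes summed to 118 and 136 CPM at E6.5 and 73.1 and 78.8 CPM at E7.5, with 9 of 11 fold changes negative and none passing; Fos measured 8.26 and 10.4 against 2.08 and 1.46 CPM (adjusted p = 0.22). The part of handling in the stage differences was not tested. None of 12 ribosomal protein genes, 18 glycolysis and hypoxia genes or 9 DNA methylation genes passed. Their medians were 0.25, 0.07 and -0.34, and Slc2a3, the glucose transporter of trophoblast, measured 1350 and 1752 against 1917 and 1942 CPM.

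The E7.0 mean lay between the E6.5 and E7.5 means for 119 of the 132 risers and 8 of the 8 fallers, against 35.2% of all genes tested. These genes were called for a wide gap between the outer stages, so a value inside that gap is no test of a gradual change. For 74 risers both E7.0 libraries lay between the outer libraries, a count given without its share over all genes. The E7.0 replicates differed in their mesoderm genes: blood and vessel progenitor genes summed to 111 CPM in replicate 1 and 239 in replicate 2, extra-embryonic mesoderm genes to 150 and 248, and streak genes to 179 and 96.7. Replicate 2 was higher for the mesoderm lists and lower for the streak. At E7.5, 92 of the 132 risers were higher in replicate 1, with a median log2 difference of 0.44 over the 132 and 0.00 over all genes. With both E7.0 libraries left out of the fit, a choice made after seeing the data, 239 genes rose and 28 fell.

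Whether these changes were particular to the extra-embryonic part was tested against the embryonic part, as the difference between their stage changes (E7.5 regions A, P and AM averaged, minus E6.5 epiblast). The extra-embryonic change was higher for 21 genes (0.172%) and lower for 4 (0.0328%). Of the 4, 1 was also among the 8 fallers and is not named here. For most of the 132 risers the difference did not pass: 113 had a positive fold change there too, against 50.0% of all genes tested, and 24 passed the test there in the same direction (0.992% of all genes rose there) and 3 in the opposite one (1.47% fell there). Pmp22, Vim, Lmo2 and Aplnr, for example, had embryonic log2 fold changes of 5.35, 2.25, 1.60 and 4.69, and their differences had adjusted p-values of 0.62, 0.18, 0.38 and 0.88.

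Fgf15 gave the largest difference of the 25 and averaged 74.0 CPM in the epiblast at E6.5. Its embryonic change was -1.92 (SE 0.51) and the difference 11.6 (SE 1.36, edgeR adjusted p = 0.0055). With 1 count over both E6.5 extra-embryonic libraries, the size of that fitted difference depends on the prior count, and its extra-embryonic log2 fold change ran from 9.09 to 12.27 over the alternatives. Ccnd1 averaged 141 CPM in the epiblast and did not pass there (-0.19, SE 0.30; difference 3.66, SE 0.50, adjusted p = 0.0066), nor did Ifitm2, at 174 CPM (0.61, SE 0.27; difference 3.17, SE 0.42, adjusted p = 0.0066). Ifitm3 had a negative embryonic change of -0.96 (SE 0.40) and a difference of 3.52 (adjusted p = 0.046). Ifitm1 differed less: its embryonic rise was 4.11 (SE 0.62) and the difference 1.12 (SE 0.80, adjusted p = 0.70).

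Other genes that differed were named after their values were seen. Tmem88, a membrane inhibitor of Wnt signalling active in heart and blood mesoderm, rose by 5.75 (SE 0.60) in the extra-embryonic part, with an embryonic change of 1.29 (SE 0.40) that did not pass (difference 4.45, adjusted p = 0.0092). Cd59a, which blocks complement, rose from 67.2 and 41.8 to 142 and 200 CPM while its embryonic change was -1.54 (SE 0.27; difference 3.18, adjusted p = 0.0092). Igfbp2, an IGF carrier, rose by 1.81 (SE 0.39) against -1.38 (SE 0.28; difference 3.19, adjusted p = 0.0099). The extra-embryonic rises of Cd59a and Igfbp2 were lost without either E6.5 library, that of Cd59a also without E7.5 replicate 2 and that of Igfbp2 without E7.5 replicate 1.
On the other side, the mesoderm and patterning genes Meis1 and Pdgfra had extra-embryonic changes of -0.57 and -0.34 that did not pass, and embryonic changes of 4.75 (SE 0.68) and 3.50 (SE 0.54). Their differences were -5.33 and -3.85 (adjusted p = 0.015 and 0.039). Irx2 had no count in the epiblast, so the size of its fitted difference (-8.50, edgeR adjusted p = 0.035) depends on the prior count too. In the extra-embryonic part it measured 22.7 and 29.3 CPM at E6.5 and 11.1 and 11.0 at E7.5. The embryonic regions A, P and AM averaged only 1.37, 1.42 and 2.22 CPM at E7.5. Leaving out either E6.5 extra-embryonic library left no gene, or almost none, passing the test of the difference. Without E7.5 replicate 2 fewer genes passed in total than in the main fit. How many of the 25 were among them is not given here.

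**Figure D3:**
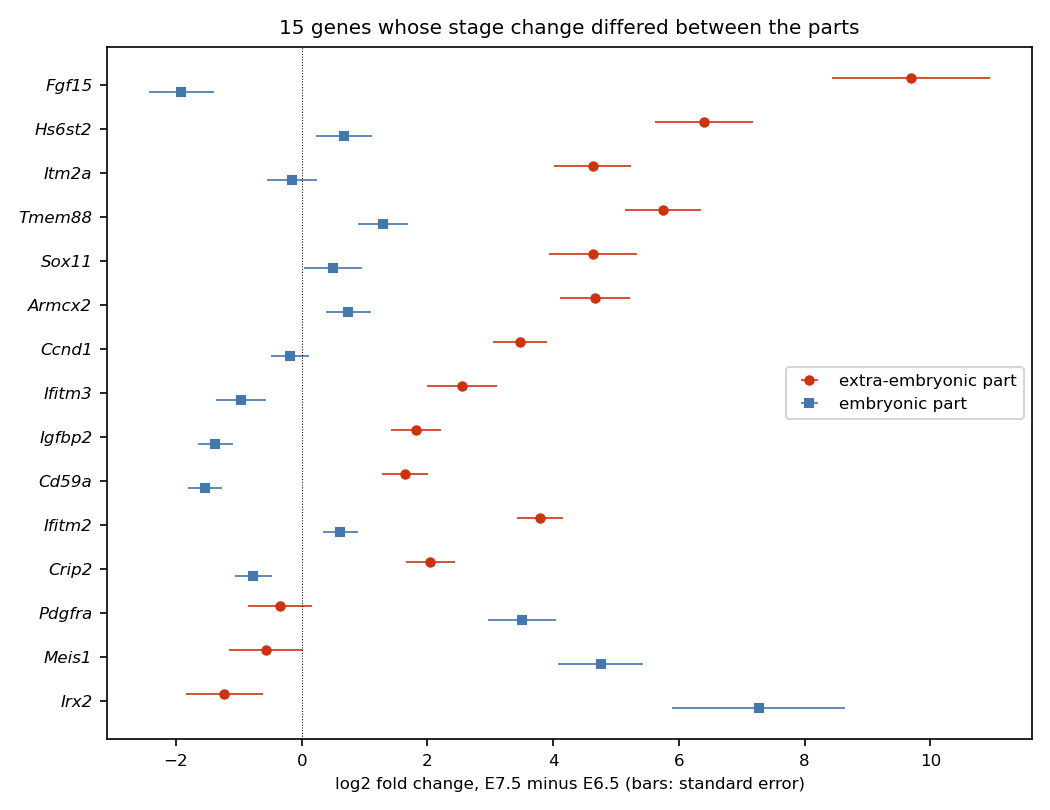
Log2 fold changes, E7.5 minus E6.5, of 15 of the 25 genes whose stage change differed between the parts, with red circles for the extra-embryonic part, blue squares for the embryonic part and bars for the standard error. The 12 upper genes have the higher change in the extra-embryonic part, and the 3 lower ones (Pdgfra, Meis1 and Irx2) in the embryonic part.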

How the data were processed

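The counts were deposited as a table of whole-number counts per gene, which the authors made; per the submitters' processing notes the series used CASAVA 1.8, TopHat2 2.0.9, BWA and the build mm10, with no role given. No label or header names the counting tool, the annotation or the strand setting. Per the labels' protocols, RNA was extracted with guanidinium thiocyanate and a carrier, and libraries were made with Nextera XT. The table has 6 further columns that match no sample and were not used.

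All 18 embryo libraries (9 groups of 2) were fitted with edgeR 4.0.16 (R 4.3.3; TMM, robust quasi-likelihood, group as the only term), and p-values were adjusted over all 12203 genes at 0.05. Standard errors are the log2 fold change over the root of F. Members and lists were chosen with earlier results of these data known. Genes were named by a rule: the 15 largest rises and falls with a mean log2 CPM of at least 3 and no overlap, up to 4 called and 2 other members per list, and the embryonic globins; others, named after their values were seen, are marked. Some results of the rule are not reported here. On simulated counts with 11791 genes tested, the extra-embryonic comparison recovered 1.49% of 2-fold, 37.3% of 4-fold and 87.9% of 8-fold changes. Gene positions and promoters are RefSeq's, GRCm38.p6. Alternatives were DESeq2 1.42.0, other scalings, filters and sample sets, a replicate block and leaving out each library.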

Additional observations from a re-analysis of the deposited data

Results flagged for a closer look

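The change from E6.5 to E7.5 differed between the extra-embryonic and the embryonic part, by the test of that difference (edgeR quasi-likelihood, adjusted p under 0.05), for 21 genes in the higher and 4 in the lower direction. On the log2 scale the difference was 11.6 for Fgf15, 5.72 for Hs6st2, a heparan sulphate modifying enzyme, 4.78 for Itm2a, 4.45 for Tmem88, 4.13 for Sox11 and 3.92 for Armcx2. It was 3.66 for Ccnd1, 3.52 for Ifitm3, 3.19 for Igfbp2, 3.18 for Cd59a, 3.17 for Ifitm2 and 2.82 for Crip2. In the other direction it was -8.50 for Irx2, -5.33 for Meis1 and -3.85 for Pdgfra. Hs6st2, Itm2a, Tmem88, Sox11, Armcx2, Igfbp2, Cd59a, Crip2, Irx2, Meis1 and Pdgfra were named after their values were seen. The sizes for Fgf15 and Irx2 depend on the prior count, since a group in each held 1 count or none.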

How the results depend on the processing

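Against 132 genes higher and 8 lower, DESeq2 gave 370 and 72, scaling by total counts alone 63 and 3 (median of all genes -0.23), the fit of the 4 libraries 233 and 142, and the fit of the 6 extra-embryonic libraries 28 and 2. Without a filter 13 were lower, and with both E7.0 libraries left out, a choice made after seeing the data, 239 and 28. For the difference between the parts (21 higher, 4 lower), the same order gave 122 and 34 with DESeq2, 3 and 1 with total counts, 34 and 8 without a filter, and 40 higher without the E7.0 libraries. Leaving out 1 library gave 14 to 174 genes higher and 0 to 34 lower, and 0 to 15 higher and 0 to 4 lower for the difference; the lone library left in a group is then assumed to vary like the other groups. Direction changed for Cdx2 and Mixl1, neither called: leaving out single libraries gave Cdx2 log2 fold changes of -1.39 (without E7.5 replicate 1) to 0.13 (without E7.5 replicate 2), and Mixl1 -1.89 (without E7.5 replicate 1) to 1.22 (without E7.5 replicate 2). Where counts changed, the cause was not tested.

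The replicate numbers share no animal in the labels, and across genes the deviations of replicate 1 at E6.5 and E7.5 correlated at -0.02, so the numbers were not taken as pairs. With the replicate block 196 genes were higher and 14 lower, and 39 and 7 for the difference.

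With 2 libraries a group, 37.3% of simulated 4-fold changes were recovered, so a gene that did not pass is not shown to be unchanged.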
